A study of Homo sapiens with 3 samples.

Results

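The miR-148/miR-152 family comprises the hairpins hsa-mir-148a, hsa-mir-148b and hsa-mir-152. It was taken here by name, as both arms of these 3 hairpins out of 1878 hairpins in the count table, which gives 6 of 2817 entries. A miRNA hairpin is cut by Drosha and Dicer into a short duplex, of which the guide strand is loaded into an Argonaute protein and the passenger strand is mostly degraded. The guide pairs with mRNAs mainly through its seed (bases 2 to 8), so miRNAs that share a seed share most of their predicted targets. The family is conserved among vertebrates, its guides come from the 3p arm, and its members are known as repressors of the DNA methyltransferase DNMT1 and of HLA-G. miR-148a is also known for regulating the LDL receptor and the cholesterol exporter ABCA1, and it is abundant in liver.

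Small RNA was sequenced from Flp-In T-REx 293 cells, which are human embryonic kidney (HEK293) cells with a Tet repressor. Each of 3 lines held a lentiviral cassette with a doxycycline-inducible CMV promoter driving GFP: the empty vector control had no hairpin, and the miR-1 and miR-122 lines had a synthetic hairpin for that miRNA, built on an artificial backbone, in the intron of the cassette. All lines, the control included, were selected in Geneticin (1 mg/mL, 6 days) and treated with doxycycline (1 ug/mL, 7 days). Each group held 1 library, made from 1000 ng of total RNA, so no difference between lines has a replicate check, no test between conditions was possible, and all intervals are 95% intervals for counting error alone. No hairpin of the family was part of any vector.

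The libraries held 1636834, 2892684 and 2577292 counts of mature miRNAs (empty vector, miR-1 and miR-122). Of these, 1636481, 1791702 and 1947669 are called endogenous here, that is, not listed under a synthetic hairpin. This set includes miR-3591-5p, with 1, 0 and 1756 counts, which was thus seen almost only in the line with the miR-122 hairpin. miRNAs of HOX loci, which are abundant in HEK293 cells, made up 17.6% to 19.6% of endogenous counts over 4 listed miRNAs. Of markers of other cell types, the 5 blood-cell miRNAs summed to 11 to 17 counts (miR-223-3p at 0 in every library) and the 3 miRNAs of pluripotent cells to 3 to 9. Muscle miRNAs had at most 3 counts of miR-206 and none of the miR-208 pair (miR-208a-3p, miR-208b-3p). miR-133a-3p of muscle and miR-122-5p of liver were counted under synthetic hairpin entries only, so their counts are not part of the endogenous counts. There, miR-133a-3p had at most 15 counts, and miR-122-5p had 10 in each library without its hairpin. Counts were present for miR-126-3p of endothelium (5319, 6314 and 7533), miR-126-5p (329, 323 and 284), miR-143-3p of smooth muscle and fibroblasts (112, 169 and 107, with at most 7 of miR-145-5p) and miR-375 of endocrine cells (505, 349 and 801). Some of these differed between the libraries in the same direction as members of the family, and their part in the results below was not tested.

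The 3 guides are shown to make their likeness visible, 5′ to 3′ and with the seed in capitals (RefSeq, GRCh38.p14 table).
miR-148a-3p: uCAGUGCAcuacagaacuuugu
miR-148b-3p: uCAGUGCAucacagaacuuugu
miR-152-3p: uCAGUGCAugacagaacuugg

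All 3 carried the seed CAGUGCA, and no other of the 2370 mature human miRNAs in the RefSeq table did. Counted from the 5′ end, miR-148a-3p and miR-148b-3p differed at 2 of 22 bases (C9U and U10C), just past the seed. miR-148a-3p and miR-152-3p differed at 3 of 21 compared bases (C9U, U10G and U20G), and miR-148b-3p and miR-152-3p at 2 (C10G and U20G), of which 1 lies within the first 18 bases. A read of the 18 nt minimum that starts at base 1 thus still differs between these entries, but between miR-148b-3p and miR-152-3p by 1 base only. Whether such reads were kept apart depends on the mismatches allowed in the alignment. The mismatch setting of the alignment is not given in the sources used here. None of the family's 18 values was fractional, whereas reads divided among hairpins gave fractions in 309 of 2817 entries, and none of the 6 mature miRNAs was listed for a further hairpin.

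The passenger arms were less alike. RefSeq sequences were matched for 5 of the 6 arms, and the 5p arms of the 2 paralogs are shown with bases 2 to 8 in capitals.
miR-148b-5p: aAGUUCUGuuauacacucaggc
miR-152-5p: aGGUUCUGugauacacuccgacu

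These differed at 4 of 22 compared bases, among them A2G inside the seed, so the 5p arms did not share the identical seed that the guides had. The guides began with U and these 5p arms with A.

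The hairpins are shown whole, with the guide in capitals, because both arms and their counts come from these transcripts.
hsa-mir-148a: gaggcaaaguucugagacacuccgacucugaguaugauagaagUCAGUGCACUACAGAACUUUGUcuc
hsa-mir-148b: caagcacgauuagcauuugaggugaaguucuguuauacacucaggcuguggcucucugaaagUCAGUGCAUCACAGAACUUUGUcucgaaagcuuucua
hsa-mir-152: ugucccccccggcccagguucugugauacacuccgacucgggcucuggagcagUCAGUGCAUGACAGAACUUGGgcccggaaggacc

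In GRCh37, the build named for the study, each hairpin sequence matched the genome at the annotated gene. MIR148A lies on chromosome 7 at 25989539 to 25989606 (minus strand), within an intron of a lncRNA gene. MIR148B lies on chromosome 12 at 54731000 to 54731098 (plus strand), in an intron of COPZ1 and also of a lncRNA gene on the same strand. MIR152 lies on chromosome 17 at 46114527 to 46114613 (minus strand), in an intron of COPZ2. COPZ1 and COPZ2 are themselves paralogs, encoding zeta subunits of the COPI vesicle coat.

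miR-148a-3p was by far the most abundant member in every library. It had 122214 counts in the empty vector library, 138175 with miR-1 and 173708 with miR-122, and ranked 2 among all endogenous miRNAs in each, below miR-10a-5p and above miR-92a-3p. As a share of endogenous counts this was 7.47% (95% Wilson interval 7.43% to 7.51%), 7.71% (7.67% to 7.75%) and 8.92% (8.88% to 8.96%). The share was lowest in the control and highest in the miR-122 library, with intervals that did not overlap.

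miR-148b-3p, which has the same seed, had 11383, 10364 and 9452 counts in the empty vector, miR-1 and miR-122 libraries and ranked 31, 34 and 38. Its share of endogenous counts was 0.696% (0.683% to 0.708%), 0.578% (0.567% to 0.590%) and 0.485% (0.476% to 0.495%). The order of the libraries was thus the opposite of that for miR-148a-3p. In the control its neighbours in rank were miR-128-3p with 12244 counts and miR-183-5p with 11203.

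miR-152-3p had 866, 1125 and 678 counts and ranked 110, 98 and 134. Its share was 0.0529% (0.0495% to 0.0566%), 0.0628% (0.0592% to 0.0666%) and 0.0348% (0.0323% to 0.0375%), highest in the miR-1 library and lowest in the miR-122 library. Its neighbours in the control were miR-20b-5p with 945 counts and miR-361-5p with 854.

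The 5p arms were all scarcer than their guides, but miR-148a-5p exceeded the guide of hsa-mir-152 in every library. miR-148a-5p had 1117, 1348 and 1392 counts (ranks 102, 94 and 91), miR-148b-5p had 284, 340 and 275 (ranks 190, 173 and 200) and miR-152-5p had 20, 24 and 25 (ranks 391, 371 and 373). As CPM of endogenous counts, the family spanned from 12.2 for miR-152-5p to 74681 for miR-148a-3p in the control. The intervals of miR-152-5p (7.91 to 18.9 in the control, 9.0 to 19.9 and 8.69 to 18.9 in the others) overlapped throughout, and at this depth no difference between libraries was detectable for it. The mature RNAs shown are 21 to 23 nt long and each read stands for 1 of them, so no length correction was made, but ligation efficiency differs between miRNAs and was not calibrated here.

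**Figure D1:**
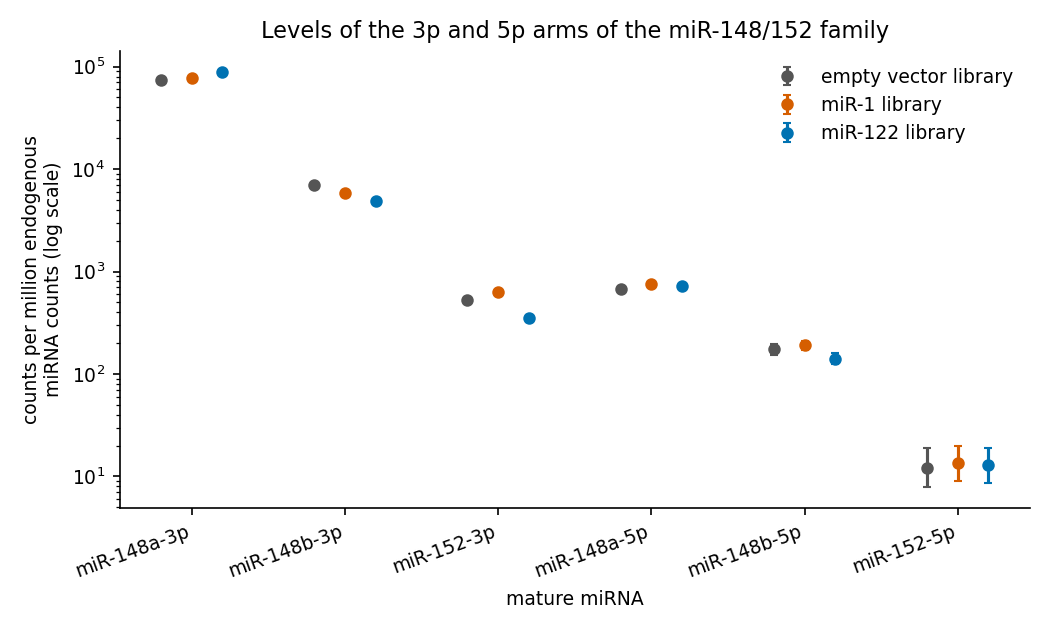
CPM of endogenous miRNA counts (log axis) of the 6 arms of the family in the empty vector, miR-1 and miR-122 libraries, 1 library per group, with 95% Wilson intervals for counting error. miR-148a-3p lay at 74681 or above in each library, at least 10 times above every other arm, and miR-152-5p lay between 12.2 and 13.4.

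The dominance of miR-148a-3p was next expressed within each library, where no scaling between libraries enters. It made up 90.9% of the counts of the 3 guides in the empty vector library (95% Wilson interval 90.7% to 91.0%), 92.3% in the miR-1 library (92.2% to 92.5%) and 94.5% in the miR-122 library (94.4% to 94.6%). miR-148b-3p made up 8.47%, 6.92% and 5.14%, and miR-152-3p 0.644%, 0.752% and 0.369%. A single paralog therefore supplied over 90% of the counts of the 3 annotated guides in every library. The seeds of single reads were not examined.

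Per count of miR-148b-3p there were 10.7 counts of miR-148a-3p in the control (95% exact binomial interval 10.5 to 10.9), 13.3 in the miR-1 library (13.1 to 13.6) and 18.4 in the miR-122 library (18 to 18.8). The ratio was thus 1.24-fold higher in miR-1 than in control (1.21 to 1.28) and 1.71-fold higher in miR-122 than in control (1.66 to 1.76). It was 1.38-fold higher in miR-122 than in miR-1 (1.34 to 1.42). These intervals of a change in ratio use the normal approximation for the log of 4 counts.

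Per count of miR-152-3p there were 141 counts of miR-148a-3p in the control (132 to 151), 123 in the miR-1 library (116 to 130) and 256 in the miR-122 library (238 to 277). Here the miR-1 library lay below the control, at 0.870 times its ratio (0.796 to 0.951), and the miR-122 library above it, at 1.82 times (1.64 to 2.01). The ratio was 2.09-fold higher in miR-122 than in miR-1 (1.90 to 2.30).

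The ratio of the less abundant paralogs to each other differed in the miR-1 library. There were 13.1 counts of miR-148b-3p per count of miR-152-3p in the control (12.3 to 14.1), 9.21 in the miR-1 library (8.66 to 9.81) and 13.9 in the miR-122 library (12.9 to 15.1). The control and miR-122 values differed by no more than counting error (1.06-fold, 0.956 to 1.18), while the miR-1 value was 0.701 times that of the control (0.639 to 0.769).

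**Figure D2:**
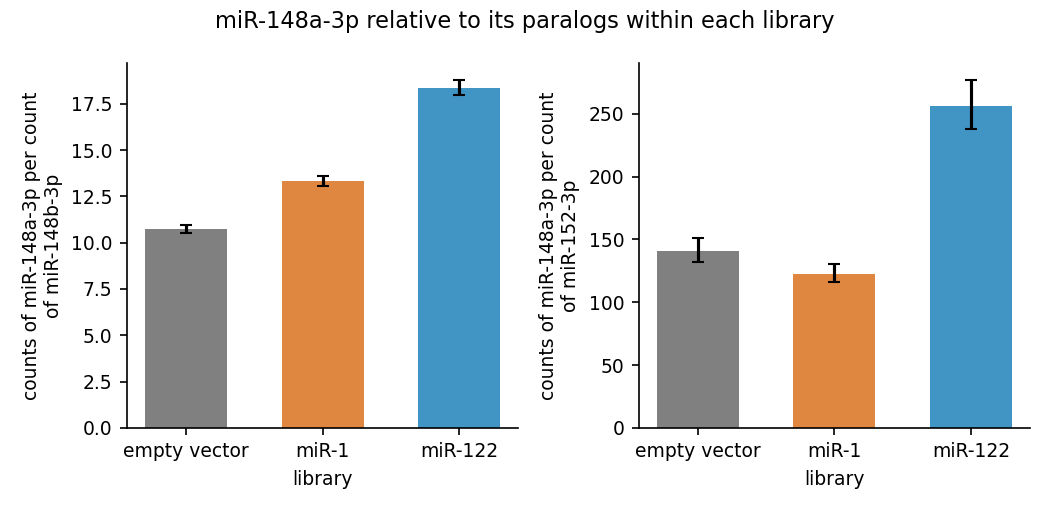
Counts of miR-148a-3p per count of miR-148b-3p (left) and per count of miR-152-3p (right) in each library, from 0 on a linear axis, with 95% exact binomial intervals for counting error and 1 library per bar. Against miR-148b-3p the ratio was 10.7, 13.3 and 18.4, and against miR-152-3p it was 141, 123 and 256, highest in the miR-122 library in both panels.

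To place this dominance among other families, endogenous miRNAs whose mean count reached 10 were grouped by their seed. Sequences were matched for 452 of 514 miRNAs, and of 44 groups with 2 or more members 35 had no counted relative of the same number that lacked a sequence. Among these 35, the miR-148/miR-152 guides ranked 3 by counts in the control (134463), after the groups led by miR-92a-3p (160516) and miR-20a-5p (143100). They ranked 2 in both induced lines (149664 and 183838). miR-10a-5p and miR-10b-5p, with 210754 and 61639 counts in the control, were in none of the 44 groups. The ranks thus hold among the 35 groups only, and miR-10a-5p alone had more counts than any of these. In the 34 other groups the leading member had a median share of 69.2% in the control, 68.0% in miR-1 and 67.2% in miR-122. The leading share exceeded that of miR-148a-3p in 10, 9 and 8 of them, all of which had 2 members. Of the groups set aside for a missing sequence, that of miR-378a-3p, with 3 matched members, also had a larger leading share (96.1%, 96.7% and 96.7% of the matched members). In the pair led by miR-34a-5p it was 91.0% of the matched members in the control. That share leaves out miR-34c-5p, which had 242 counts beside 739 of miR-34a-5p, so it overstates the lead.

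Among those of the 35 groups with the most counts, the leading shares in the control varied widely. Abundant miRNAs outside the 35 are not covered. The group led by miR-30a-5p, set aside for a missing sequence, had 73188 control counts in 3 matched members. miR-30d-5p (36114) was not among these members. miR-92a-3p, of the miR-17-92 cluster, made up 65.1% of its group of 5, and miR-20a-5p, of the same cluster, 45.8% of its group of 6. let-7a-5p made up 39.8% of its group of 9. By contrast, miR-21-5p made up 99.97% of a pair with miR-590-5p, and miR-103a-3p 93.1% of a pair with miR-107. The leading share was higher in the miR-122 library than in control for other miRNAs too, at 47.9% for let-7a-5p and 95.8% for miR-103a-3p, while miR-92a-3p stood lower, at 63.5%. Counts of miR-92a-3p are summed over more than 1 hairpin, and the let-7 members differ by few bases.

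**Figure D3:**
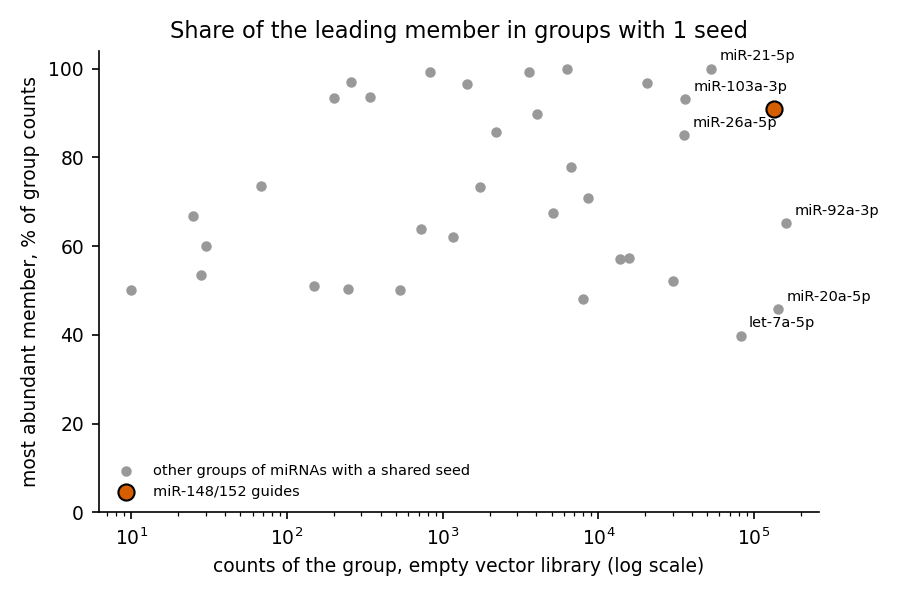
Share of the most abundant member (vertical axis, % of group counts) against the counts of the group (horizontal log axis) for 35 groups of miRNAs with a shared seed in the empty vector library, each point being 1 group. The miR-148/miR-152 guides lie at 134463 counts and 90.9%. The other 3 of the 4 plotted groups with the most counts, led by miR-92a-3p, miR-20a-5p and let-7a-5p, lie at 65.1% or below. Groups set aside for a missing sequence and miRNAs in no group, such as miR-10a-5p (210754 counts), are not plotted.

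The next comparison was between the arms of each hairpin. For hsa-mir-148a the 3p share of both arms was 99.1% in the control (95% Wilson interval 99.0% to 99.1%), 99.0% in miR-1 (99.0% to 99.1%) and 99.2% in miR-122 (99.2% to 99.2%). For hsa-mir-148b it was 97.6% (97.3% to 97.8%), 96.8% (96.5% to 97.1%) and 97.2% (96.8% to 97.5%), and for hsa-mir-152 it was 97.7% (96.5% to 98.5%), 97.9% (96.9% to 98.6%) and 96.4% (94.8% to 97.6%). The 3p arm thus led in all 3 hairpins and all 3 libraries, and hsa-mir-148a was the most one-sided in each.

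As ratios, hsa-mir-148a gave 109 guide counts per passenger count in the control (exact binomial interval 103 to 116), 103 in miR-1 (97.1 to 108) and 125 in miR-122 (118 to 132). The value in miR-122 was 1.14-fold that of the control (1.05 to 1.23), and miR-1 and control differed by no more than counting error (0.937-fold, 0.865 to 1.01). hsa-mir-148b gave 40.1 (35.6 to 45.2), 30.5 (27.4 to 34.1) and 34.4 (30.5 to 38.9), and its ratio in miR-1 was 0.761 times that of the control (0.648 to 0.892). hsa-mir-152 gave 43.3 (27.9 to 71.2), 46.9 (31.3 to 73.5) and 27.1 (18.2 to 42.2), with overlapping intervals that rest on 20 to 25 passenger counts.

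The paralogs were less unequal in their 5p arms than in their guides. miR-148a-5p made up 78.6% of the counts of the 3 5p arms in the control (76.4% to 80.7%), 78.7% in miR-1 (76.7% to 80.6%) and 82.3% in miR-122 (80.4% to 84.0%), below the 90.9% to 94.5% of miR-148a-3p among the guides. miR-148b-5p made up 19.99%, 19.9% and 16.3%, and miR-152-5p 1.41%, 1.40% and 1.478%.

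Most hairpins in these cells were one-sided. Among 305 other endogenous hairpins with both arms listed and at least 10 counts in the control, the dominant arm had a median share of 96.7%, with quartiles of 86.4% and 99.7%. The 3p arm was the dominant arm in 132 of the 305 (43.3%). A larger dominant share than that of hsa-mir-148a was found in 103 hairpins, than that of hsa-mir-148b in 138 and than that of hsa-mir-152 in 137, so hsa-mir-148a lay above the median of the distribution. The place of its paralogs turned with the minimum: at 100 counts, 102 and 101 of 192 hairpins were more one-sided than hsa-mir-148b and hsa-mir-152, against 71 for hsa-mir-148a, and at 1000 counts 65 of 106 were more one-sided than hsa-mir-148b.

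**Figure D4:**
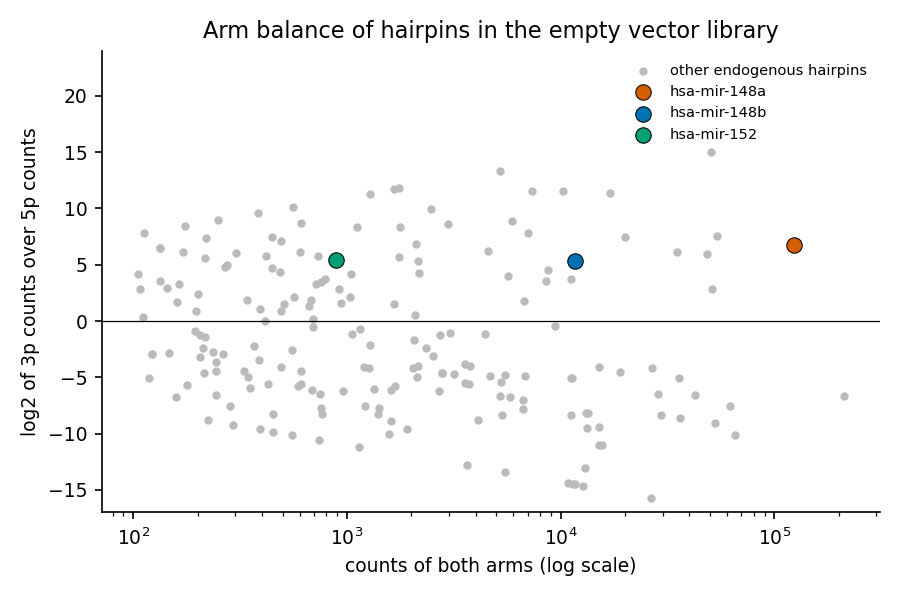
Log2 of 3p over 5p counts (pseudocount 0.5) against the counts of both arms (log axis) for endogenous hairpins with at least 100 counts in the empty vector library, each point being 1 hairpin. The 3 hairpins of the family lie above 0, with 109, 40.1 and 43.3 counts of the 3p arm per count of the 5p arm for hsa-mir-148a, hsa-mir-148b and hsa-mir-152.

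The libraries were then compared after scaling on 514 endogenous miRNAs whose mean count reached 10, which all 6 arms of the family passed. No arm of the family was called, that is, at least 2-fold apart, in any comparison. In miR-1 to empty vector, 0 of 6 arms were called, against 3.31% of all miRNAs tested, in miR-122 to empty vector 0 of 6 against 9.73%, and in miR-122 to miR-1 0 of 6 against 8.56%. With 6 arms, these shares do not set the family apart. The calls over all miRNAs divided into 11 higher and 6 lower, 17 higher and 33 lower, and 16 higher and 28 lower. Scaling by library totals, induced miRNAs included, made them 1 and 107, 6 and 95, and 27 and 19. Among the higher calls of the first scaling was miR-3591-5p in both comparisons of the miR-122 library (log2 ratios 10.03 and 11.71).

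miR-148a-3p stood 1.06-fold above control in the miR-1 library (95% interval 1.05 to 1.07, log2 ratio 0.08) and 1.27-fold above it in the miR-122 library (1.26 to 1.28, log2 ratio 0.35). The intervals exclude equality because of the high counts, but 422 and 252 of the 513 other miRNAs lay as far from 0 or farther, and the spread of all log2 ratios (scaled median absolute deviation) was 0.31 and 0.52. Among the 107 others whose mean count reached 1000, 34 and 15 had a higher ratio. Of the endothelial markers, miR-126-3p had log2 ratios of 0.15 and 0.34 and miR-126-5p of -0.12 and -0.37, and their part in these values was not tested. miR-148a-5p had log2 ratios of 0.18 (0.06 to 0.29) and 0.16 (0.04 to 0.27).

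miR-148b-3p had log2 ratios of -0.23 in miR-1/control (-0.27 to -0.19) and -0.43 in miR-122/control (-0.47 to -0.39). Among the 107 other miRNAs whose mean count reached 1000, where the spread was 0.18 and 0.40, 10 and 18 had a lower ratio. Its passenger miR-148b-5p had log2 ratios of 0.17 (-0.07 to 0.40) and -0.21 (-0.45 to 0.04), neither beyond counting error.

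miR-152-3p was the member whose ratios differed most between the lines, at 0.28 in miR-1/control (0.16 to 0.41) and -0.51 in miR-122/control (-0.66 to -0.37). Directly between the induced lines its log2 ratio of miR-122 to miR-1 was -0.80 (-0.94 to -0.66), a 1.74-fold lower level, and 66 of the 513 other miRNAs lay as far from 0 or farther. In that comparison miR-148a-3p had 0.26 and miR-148b-3p -0.20. miR-143-3p, the fibroblast and smooth muscle marker, had 0.50 in miR-1/control and -0.22 in miR-122/control; whether it bears on miR-152-3p was not tested.

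The median log2 ratio of the 6 arms was 0.17 in miR-1/control, beside -0.00 over all 514 miRNAs, with 5 arms higher and 1 lower. For miR-122/control the median was -0.02, beside -0.04, with 3 higher and 3 lower. Summed over the 3 annotated guides, the log2 ratio was 0.06 in miR-1/control (0.05 to 0.07) and 0.29 in miR-122/control (0.28 to 0.30), which is 1.22-fold. This sum follows miR-148a-3p and hides the lower counts of miR-148b-3p. The guides together made up 8.22%, 8.35% and 9.44% of endogenous counts in control, miR-1 and miR-122. Both comparisons use the same control library.

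Scaling by library totals, induced miRNAs included, placed the median of all miRNAs at -0.73 in miR-1/control and -0.53 in miR-122/control, and turned the ratios of miR-148a-3p to -0.64 and -0.15 and that of miR-152-3p in miR-1 to -0.44. A change of scaling alone shifts every ratio and their median alike, so the distance to the median cannot show whether a result depends on scaling. The filter, the pseudocount and the combining of hairpins can change that distance. Over the settings tried, miR-148a-3p stayed above the median, from 0.09 to 0.18 in miR-1 and from 0.38 to 0.51 in miR-122/control. miR-148b-3p stayed below, from -0.23 to -0.14 and from -0.40 to -0.27. miR-152-3p stayed above in miR-1, from 0.29 to 0.38, and below in miR-122, from -0.48 to -0.35.

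**Figure D5:**
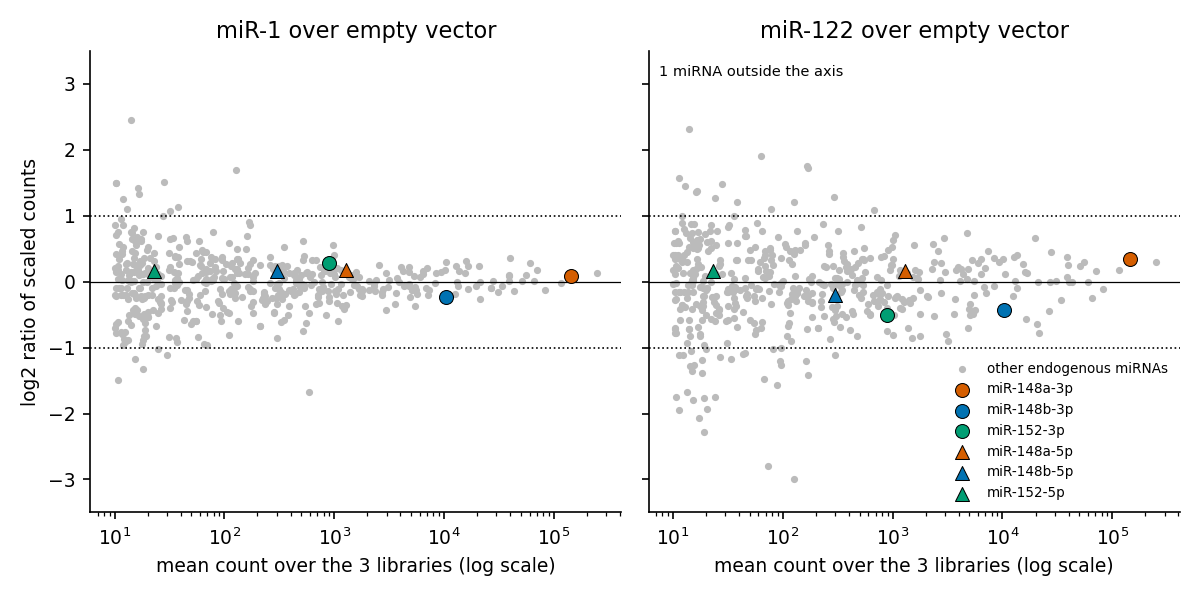
Log2 ratio of scaled counts against the mean count over the 3 libraries (log axis) for 514 endogenous miRNAs, in miR-1 over empty vector (left) and miR-122 over empty vector (right). Dotted lines mark 2-fold, and 1 miRNA, miR-3591-5p (log2 ratio 10.03), lies outside the right axis. All 6 arms lie between the dotted lines, from -0.23 to 0.28 on the left and from -0.51 to 0.35 on the right, with miR-148a-3p above 0 and miR-148b-3p below 0 in both panels.

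The miRNAs most like each guide were sought by the distance between pairs of log2 ratios to control, over 3 libraries that share that control and among miRNAs whose mean count reached 1000. Nearest to miR-148a-3p were let-7a-5p (0.08 and 0.37, distance 0.02), miR-532-5p (0.09 and 0.32) and miR-296-3p (0.11 and 0.35). Nearest to miR-148b-3p were miR-106b-5p (-0.23 and -0.41, distance 0.01), miR-16-5p (-0.18 and -0.43) and miR-339-5p (-0.22 and -0.50). miR-152-3p had no such close neighbour among these miRNAs: the nearest, miR-101-3p, lay at 0.23 and -0.64 (distance 0.14), followed by miR-107 and miR-378c at distances of 0.26 and 0.30. Its own mean count of 890 was below the minimum of 1000 set for the others. Less abundant miRNAs were not searched, among them miR-17-3p (mean count 307), which lay at 0.16 and -0.52. The lack of a close neighbour may therefore reflect that minimum.

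Related miRNAs were described from lists. The miRNAs of the miR-130, miR-301 and miR-454 family carry AGUGCA, the last 6 bases of the guides' seed, shifted by 1 position. The 5 listed together had 1220, 1165 and 996 counts, or 0.0746%, 0.0650% and 0.0511% of endogenous counts, against 8.22% to 9.44% for the miR-148/miR-152 guides. All 5 passed the count filter. None was 2-fold apart in miR-1/control, and 1 was lower in miR-122/control, miR-301a-3p (78, 95 and 31 counts, log2 ratio -1.48, -2.14 to -0.87), against 3.31% and 9.73% of all miRNAs. In miR-122/miR-1, 2 of the 5 were 2-fold lower, against 8.56%, namely miR-301a-3p (-1.67) and miR-301b-3p (-1.18). The median of the list was 0.06 and -0.48, beside -0.00 and -0.04 over all miRNAs. miR-454-3p, its most abundant member, had 805, 689 and 695 counts and log2 ratios of -0.32 and -0.37.

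Of 7 other miRNAs known for effects on cholesterol genes, 2 of them in the former list, none was 2-fold apart in miR-1/control and 1 was lower in miR-122/control, miR-33a-5p, which is transcribed within the sterol regulator SREBF2 (186, 214 and 90 counts, log2 ratio -1.20, -1.59 to -0.84), against the same 3.31% and 9.73%. In miR-122/miR-1, 3 of the 7 were 2-fold lower, against 8.56%: miR-33a-5p (-1.31), miR-33b-5p (-1.47, on 22 and 8 counts) and miR-301b-3p. The abundant miR-128-3p (12244, 13005 and 13722 counts) and miR-27b-3p differed by at most 0.01 on the log2 scale from control in both lines. The median of this list was 0.00 and -0.48.

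The 3 guides of the miR-29 family, known repressors of DNMT3A and DNMT3B, were lower than control in both lines, with medians of -0.40 and -0.57. miR-29a-3p, the most abundant, had 1277, 1178 and 1182 counts and log2 ratios of -0.21 and -0.27. In miR-122/control 1 of the 3 was 2-fold apart, against 9.73% of all miRNAs, namely miR-29c-3p (128, 103 and 59 counts, log2 ratio -1.27, -1.75 to -0.82). None of the 3 was 2-fold apart in the other comparisons, against 3.31% and 8.56%.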

How the data were processed

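Small RNA-seq libraries of 3 cell lines were analysed, 1 per group. Per the study's methods, the authors removed adapters and any read shorter than 18 nt, merged identical reads and counted with miRDeep2 (version not given in the sources used here) on human hairpins of miRBase release 21 with the synthetic hairpins appended; no genome entered the counting, although hg19 is named in the labels. The deposited values are estimated counts, in which a read that maps to several hairpins is divided among them. The authors also deposited RPM values, scaled to all miRNA reads with the induced miRNAs included, which matched the counts of the family divided by the library total to within 0.00493 RPM, and a pooled total over libraries, some of which are not analysed here. Reads carried no molecular identifiers, so intervals cover counting error only.

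Hairpins that yield the same mature miRNA were summed. The entries of 5 synthetic hairpins were set aside, and 514 of 1351 endogenous miRNAs with any count had a mean of at least 10 and were kept. Libraries were scaled by TMM on these (edgeR 4.0.16, R 4.3.3). Log2 ratios used a pseudocount of 0.5, and their intervals are exact binomial intervals on counts rounded to whole numbers. Shares carry 95% Wilson intervals. With 1 library per group no test was run, and a miRNA was called at a difference of at least 2-fold. The script was tested on simulated data. Sequences came from the RefSeq table (GRCh38.p14), and gene positions from GENCODE on GRCh37.

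The miRNAs named were both arms of the 3 hairpins, their neighbours in rank, the 3 nearest patterns per guide, the leading seed groups, and the lists of related miRNAs and cell type markers. Members and lists were chosen with earlier results of these data known. Seed groups with a relative lacking a sequence were set aside after the sequence table was seen. Alternatives covered scaling, filter, pseudocount, fold, combining of hairpins, arms and the total used for shares.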

Additional observations from a re-analysis of the deposited data

Results flagged for a closer look

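The log2 ratios of miR-152-3p to control went in opposite directions in the induced lines, at 0.28 in the miR-1 library (95% counting interval 0.16 to 0.41) and -0.51 in the miR-122 library (-0.66 to -0.37), with 866, 1125 and 678 counts in empty vector, miR-1 and miR-122. It drew attention because neither interval includes 0. With 1 library per group, whether the conditions differ was not tested. When scaled by library totals, induced miRNAs included, both ratios were below 0, at -0.44 and -1.01, beside medians of -0.73 and -0.53 over all miRNAs.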

How the results depend on the processing

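No paired analysis was possible because no group had more than 1 library, and for the same reason no library could be left out. Over 66 results, 195 alternatives were computed: 143 stayed within the counting interval (or within 1.5 times for counts of miRNAs), 46 moved past it and 6 changed the sign of a ratio whose interval excludes 0. Intervals of abundant miRNAs are narrow, so small shifts passed them. DESeq2 size factors moved no result. Depth limits miR-152-5p, with 20 to 25 counts, most. Causes were not tested.

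Counting every log2 ratio, 11 changed sign, all with scaling by library totals, induced miRNAs included, which lowers every endogenous miRNA in their lines: miR-148a-3p gave -0.64 in miR-1/control and -0.15 in miR-122/control, miR-148a-5p -0.55 and -0.34, miR-152-3p -0.44 in miR-1/control, and miR-148b-3p 0.034 in miR-122/miR-1. The other 5 had intervals that include 0: miR-148b-5p gave -0.56 in miR-1/control, miR-148a-5p 0.21 in miR-122/miR-1, and miR-152-5p -0.56, -0.34 and 0.22 in the 3 comparisons. Under it miR-148b-3p moved to -0.96 and -0.92 in the comparisons with control, miR-152-3p to -1.01 in miR-122/control and -0.56 in miR-122/miR-1, and miR-148a-3p to 0.50 in miR-122/miR-1. With total endogenous counts, miR-148a-3p gave 0.046, 0.26 and 0.21 (miR-1/control, miR-122/control, miR-122/miR-1), and miR-148b-3p -0.52 in miR-122/control and -0.25 in miR-122/miR-1. At a mean count of 100 or more, miR-148a-3p gave 0.12, 0.37 and 0.25, without a filter 0.34 and 0.24 in the comparisons of miR-122, and with the highest hairpin only 0.34 in miR-122/control.

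The miRNAs at least 2-fold apart (17, 50 and 44 in the same order) numbered 426, 509 and 467 without a filter, 2, 10 and 8 at a mean count of 100 or more, and 86, 139 and 119 at 1.5-fold. They numbered 108 and 101 in the comparisons with control under library totals with induced miRNAs, and 7 in miR-1/control and 27 in miR-122/miR-1 with a pseudocount of 5. With both arms counted, miR-148a made up 92.2% and 94.4% of the family in miR-1 and miR-122, and its ratio to miR-148b in miR-1 was 13.0. Of all counts, induced miRNAs included, miR-148a-3p made up 4.78% and 6.74%, miR-148b-3p 0.358% and 0.367%, and miR-152-3p 0.0389% and 0.0263% in miR-1 and miR-122.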

Other observations

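In the authors' pooled total, which also covers libraries not analysed here, miR-148a-3p had 573365 counts, miR-148b-3p 43095 and miR-152-3p 3663. The share of miR-148a-3p among the 3 guides was 92.5% there, between the values of the control and miR-122 libraries, and the 3p arm made up 99.1%, 97.4% and 97.5% of the counts of hsa-mir-148a, hsa-mir-148b and hsa-mir-152. Of these guide totals, 24.3%, 27.6% and 27.1% lay outside the 3 libraries.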
